A study of Macaca mulatta with 39 samples.

Results

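The genes that prepare peptides for MHC class I molecules were followed in rhesus macaque embryonic stem cells (ESCs) and in fibroblasts derived from them or from their parents. A list of 10 genes was set by function, with earlier results of these data known. It holds TAPBP, B2M, TAP1, TAP2, PSMB8, PSMB9, PSMB10, ERAP1, ERAP2 and NLRC5. The array annotation names 9 of the 10, through 17 of the 24956 probe sets that carry a single gene name, and names no probe set for PSMB9. TAPBP and TAP2 have 3 probe sets each, B2M, PSMB10, ERAP1 and ERAP2 have 2 each, and TAP1, PSMB8 and NLRC5 have 1 each. A gene's brightest probe set is the one whose mean over the 13 source means is highest.

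MHC class I molecules display short peptides from inside the cell to cytotoxic T cells. Proteasomes, among them the immunoproteasome with its own catalytic subunits, cut proteins into peptides, the transporter TAP carries these into the endoplasmic reticulum, and aminopeptidases trim them there. A loading complex held together by tapasin places a peptide on a heavy chain paired with beta-2-microglobulin, and NLRC5 is a transcriptional activator of many of these genes. Pluripotent cells are known for low class I display at their surface.

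RNA was measured on single-colour arrays in 13 cell sources, each run in 3 arrays that the labels call biological triplicates. The ESCs came from C3106, a male line, and from C3806, a female one, each of which is 1 source. Teratoma fibroblasts were explants of tumours that formed after the ESCs had been injected into immune compromised mice, with 5 cultures from line C3106 (TA31, TB31, TC31, TD31 and TE31) and 3 from line C3806 (TA38, TB38 and TC38). Skin fibroblasts were outgrowths of skin from macaques whose gametes had given rise to the lines (M032, M088 and M106p1). The labels name no genetic change and no drug for any group, and they give no ages. Values are log2 signals, on which a difference of 1 is a 2-fold difference in signal.

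Of the 39 arrays, 3 were left out by rule (C3806c, M106p1f and TB31c), which left 36. POU5F1 stood at 4.84 and LUM at 12.56 on the array labelled C3806c, whereas the other 5 ESC arrays lay between 12.67 and 13.17 for POU5F1 and between 2.83 and 3.71 for LUM. POU5F1 is a pluripotency factor and LUM a matrix proteoglycan of fibroblasts. A mitochondrial probe set shows how the other pair stood. On it the array labelled TB31c had 12.21 where TB31a and TB31b had 6.62 and 7.02. The array labelled M106p1f had 6.85 where M106p1b and M106p1e had 12.39 and 12.44. A further array went against its line. On 15 probe sets that separated the teratoma arrays of the lines by at least 2 log2 units, the array labelled C3106c was nearer to line C3806 on 15, while C3106b and C3106d were nearer to it on 1 each. C3106c was kept under its label, and values without it are given where they change a result. Actin probe sets at the 3′ end exceeded those at the 5′ end by 3.89 on C3806a and by at most 0.78 on any other array. ESC markers were called higher in ESCs for 7 of 7 measured genes against both fibroblast kinds, and fibroblast markers were called lower for 5 of 7.

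A call needed a log2 difference of 1 or more in either direction and a limma p under 0.05 after Benjamini-Hochberg adjustment over all 24956 probe sets. Arrays of a source were averaged first. Each ESC line is 1 source, so the spread behind each comparison of cell types came from the fibroblast cultures. Tests among cultures and between the ESC lines were fitted on single arrays, and their spread is that between arrays of a source. All p-values measure the spread between these samples only. In bulk RNA, fewer cells of a type and less RNA per cell cannot be told apart.

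TAPBP and PSMB8 were called lower in ESCs against both fibroblast kinds, and TAP1 and NLRC5 against skin fibroblasts. None of the 17 probe sets was called higher in ESCs. Against teratoma fibroblasts 2 of 17 were called lower, where 8.51% of all probe sets were, 6.12% were called higher and 14.6% either way. Against skin fibroblasts 4 of 17 were called lower, where 9.77% of all probe sets were, 9.52% were called higher and 19.3% either way. The median log2 difference over the 17 was -0.29 against teratoma fibroblasts and -0.18 against skin, with medians over all probe sets of 0.0070 and 0.015. Both comparisons use the same ESC arrays. The genes were chosen with earlier results of these data known, so the counts beside these shares are a description and no test. In 6 of 17 probe sets both ESC lines lay below all 11 fibroblast cultures, which held for 18.4% of all probe sets. The lines lay below all 8 teratoma cultures in 6 of 17 (21.0% of all) and below all 3 skin cultures in 9 of 17 (27.9% of all). The 6 were the brightest of TAPBP and TAP2, the single ones of TAP1 and PSMB8, and both of B2M.

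**Figure D1:**
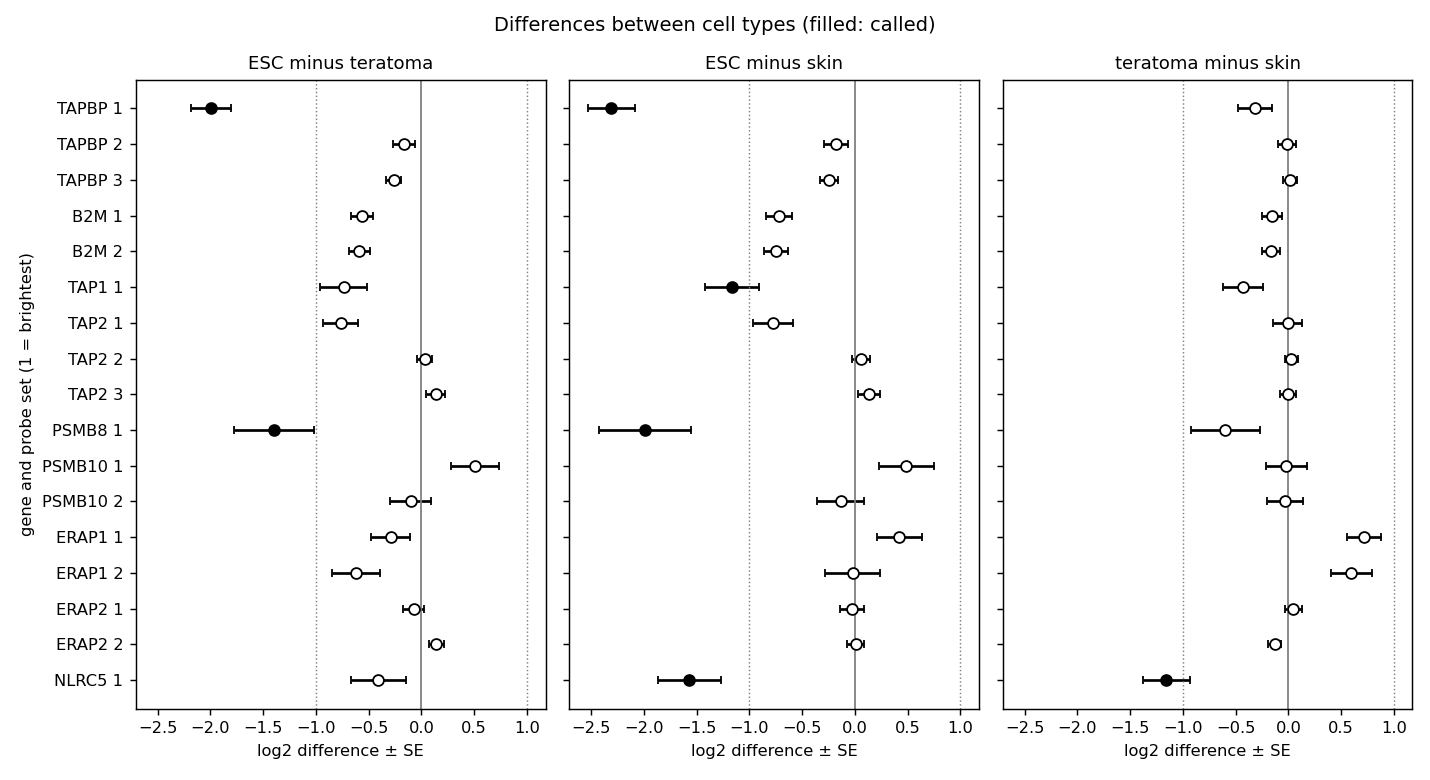
Log2 difference with its standard error (horizontal axis) for each of the 17 probe sets (vertical axis, numbered by brightness within a gene) in 3 comparisons; filled points were called and dotted lines mark a difference of 1. TAPBP 1 and PSMB8 lie furthest to the left in both ESC comparisons, and NLRC5 is the single filled point between teratoma and skin fibroblasts.

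TAPBP, which encodes tapasin, the bridge between TAP and the class I heavy chain, had the largest difference of the 17. The brightest TAPBP probe set read 7.68, 7.90 and 7.86 on the arrays C3106b, C3106c and C3106d, and 8.29 and 7.98 on C3806a and C3806b. The 23 teratoma arrays ran from 9.38 through a median of 9.89 to 10.57, and the 8 skin arrays from 10.04 through a median of 10.31 to 10.50. Every ESC array was more than 1 log2 unit below every fibroblast array, while teratoma and skin arrays overlapped. The difference was -1.995 ± 0.19 (SE) against teratoma fibroblasts (limma adjusted p = 2.34e-05) and -2.31 ± 0.22 against skin (adjusted p = 2.33e-05). Without C3106c these were -2.02 and -2.33, and with all 39 arrays -1.69 and -1.92, called in each case.

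The other TAPBP probe sets showed little of this difference. The second read -0.17 ± 0.10 against teratoma fibroblasts (limma adjusted p = 0.242) and the third -0.27 ± 0.074 (adjusted p = 0.0166, under the fold limit). Against skin they read -0.18 ± 0.12 (limma adjusted p = 0.265) and -0.25 ± 0.085 (adjusted p = 0.0392, under the fold limit). Their source means ran from 7.07 to 7.48 and from 6.62 to 7.15, beside array medians of 6.25 to 6.48. The probe sets of TAPBP therefore disagree in size, and the result for the gene rests on the brightest. The part of the transcript that each probe set reads was not analysed here.

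B2M, the light chain that every class I heavy chain needs, was high in all sources. Its brightest probe set read 12.27 to 12.72 on the 5 ESC arrays, 12.79 to 13.34 on the teratoma arrays and 13.004 to 13.434 on the skin arrays, so no ESC array reached a fibroblast array. The differences were -0.56 ± 0.11 against teratoma fibroblasts (limma adjusted p = 0.00203) and -0.72 ± 0.12 against skin (adjusted p = 0.00102). The second probe set gave -0.59 and -0.75. All 4 values passed the p limit and were under the fold limit, so B2M was not called.

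**Figure D2:**
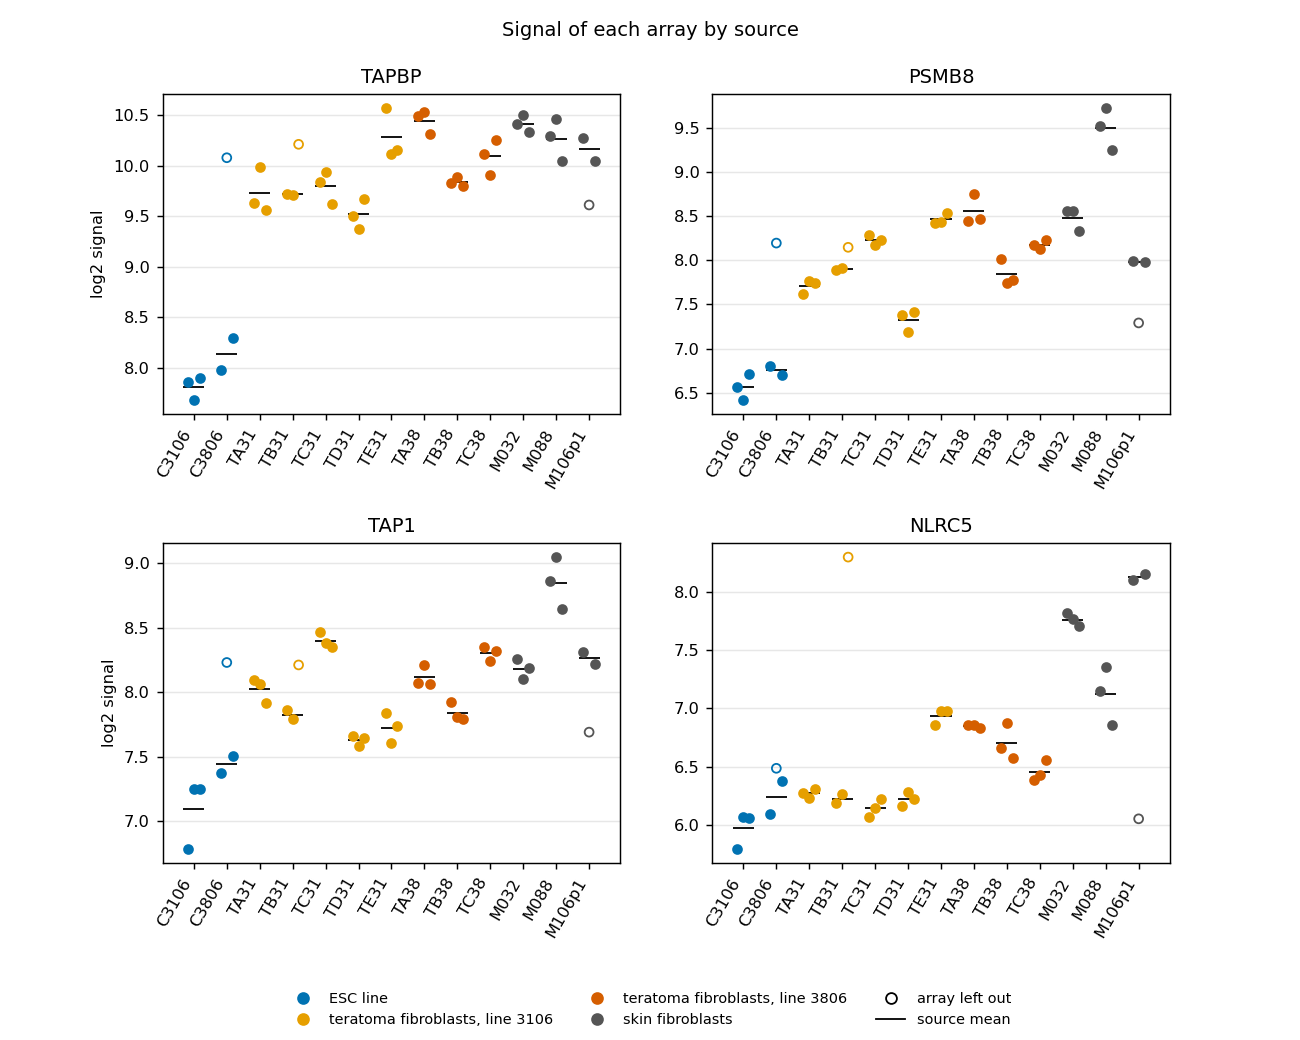
Log2 signal (vertical axis) on each array by source (horizontal axis) for the brightest or only probe sets of TAPBP, PSMB8, TAP1 and NLRC5; lines are source means and open circles are the 3 arrays left out. ESC arrays of TAPBP lie at 7.68 to 8.29 and fibroblast arrays at 9.38 or above. The source means of NLRC5 are higher in the 3 skin cultures than elsewhere, with some arrays of M088, TE31 and TB38 overlapping.

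TAP1 and TAP2 encode the subunits that pair into the peptide transporter. TAP1 read 7.25, 7.25 and 6.79 on C3106b, C3106c and C3106d and 7.51 and 7.37 on C3806a and C3806b. Teratoma arrays ran from 7.58 through 7.93 to 8.46 and skin arrays from 8.10 through 8.29 to 9.05. Every ESC array was below every fibroblast array, the nearest being C3806a at 7.51 and TD31a at 7.58. TAP1 was called lower in ESCs against skin (-1.17 ± 0.26, limma adjusted p = 0.00418) and not against teratoma fibroblasts (-0.74 ± 0.22, adjusted p = 0.0237, under the fold limit). The call against skin was lost with all 39 arrays (-0.97), without the source C3106 (-0.99) and without M088 (-0.96).

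The brightest TAP2 probe set read 7.49 to 7.88 on ESC arrays, 8.06 to 8.83 on teratoma arrays and 7.90 to 9.02 on skin arrays. The highest ESC array, C3806b, stood just below the lowest skin array, M032a. Its differences of -0.77 ± 0.17 against teratoma fibroblasts (limma adjusted p = 0.00413) and -0.77 ± 0.19 against skin (adjusted p = 0.00779) passed the p limit but not the fold limit. The other TAP2 probe sets read 0.030 and 0.13 against teratoma fibroblasts and 0.057 and 0.13 against skin, with adjusted p of 0.286 or above. The source means of these other probe sets ran from 5.85 to 6.10 and from 5.46 to 5.84. Both ranges lie below the array medians of 6.25 to 6.48, where a lack of difference says little. The result for the gene therefore rests on the brightest TAP2 probe set.

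PSMB8, a catalytic subunit of the immunoproteasome, was called lower in ESCs against both fibroblast kinds. It read 6.42, 6.72 and 6.57 on C3106b, C3106c and C3106d and 6.71 and 6.80 on C3806a and C3806b. Teratoma arrays ran from 7.18 through a median of 8.13 to 8.75 and skin arrays from 7.97 through 8.55 to 9.72. No ESC array reached a fibroblast array, and teratoma and skin arrays overlapped. The difference was -1.40 ± 0.38 against teratoma fibroblasts (limma adjusted p = 0.0143) and -1.99 ± 0.43 against skin (adjusted p = 0.00418). The call against teratoma fibroblasts was lost without either ESC source, at -1.30 (adjusted p = 0.0787) without C3106 and -1.49 (adjusted p = 0.0563) without C3806.

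PSMB8 also varied widely within a cell type. By source mean, M088 was highest at 9.50 ± 0.24 (SD over 3 arrays), followed by TA38 at 8.55, M032 at 8.48 and TE31 at 8.46. Arrays of the last 3 overlapped, and M088 stood 0.95 above TA38 with no overlap. TD31 was the lowest fibroblast culture at 7.33 ± 0.12, 0.38 below TA31. An F test in limma over arrays found differences beyond the spread between arrays among skin cultures (adjusted p = 2.78e-11), among line C3106 teratoma cultures (adjusted p = 2.77e-09) and among those of line C3806 (adjusted p = 2.35e-05). The ESC lines did not pass, at 0.19 between them (adjusted p = 0.332).

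PSMB10, another immunoproteasome subunit, was not called in any comparison. Its brightest probe set read 8.73 to 9.35 on ESC arrays, and the highest source means were C3806 at 9.34 and TC38 at 9.24. The ESC values were 0.51 ± 0.23 above teratoma fibroblasts (limma adjusted p = 0.104) and 0.49 ± 0.26 above skin (adjusted p = 0.162), neither called. Without C3106 these were 0.73 and 0.71, and without C3806 0.28 and 0.26. The teratoma side of those fits kept the cultures of both lines. Within a line, C3806 read 9.34 and its teratoma cultures 8.75, and C3106 read 8.90 and its teratoma cultures 8.47. The second PSMB10 probe set read -0.10 against teratoma fibroblasts and -0.13 against skin. The 5 measured genes of a list of constitutive catalytic subunits and proteasome activators had 0 calls in either direction against either fibroblast kind. Of all probe sets 14.6% were called against teratoma fibroblasts and 19.3% against skin. The medians of the 5 were 0.27 and 0.34. At an unadjusted p under 0.05 the whole array passed 46.5% and 48.6% of probe sets in these comparisons.

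**Figure D3:**
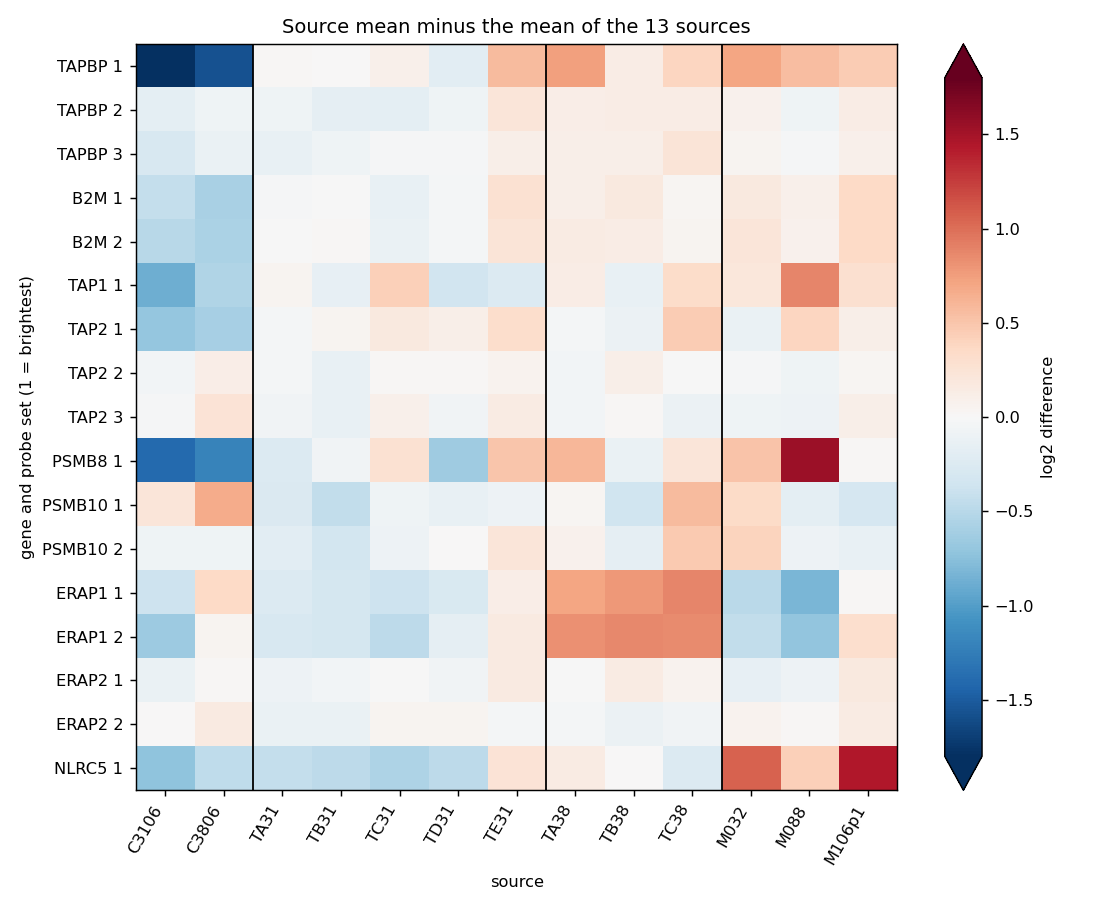
Source mean minus the mean of the 13 sources (colour, in log2 units) for the 17 probe sets (vertical axis, numbered by brightness within a gene) and the 13 sources (horizontal axis), with lines that divide ESCs, the teratoma cultures by line, and skin. Blue ESC columns are seen for the brightest TAPBP, both B2M, TAP1, the brightest TAP2 and PSMB8, ERAP1 is red in the 3 line C3806 teratoma cultures, and NLRC5 is red in the skin cultures.

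ERAP1 and ERAP2 trim peptides in the endoplasmic reticulum. ERAP1 stood higher in teratoma cultures of line C3806 than in those of C3106, a difference that was not called. Its brightest probe set read 8.38, 8.84 and 7.56 on C3106b, C3106c and C3106d, and 9.41 and 8.59 on C3806a and C3806b. The 14 line C3106 teratoma arrays ran from 8.10 through a median of 8.34 to 8.88, and the 9 line C3806 teratoma arrays from 9.10 through 9.48 to 9.66. The teratoma arrays of the lines did not overlap, whereas ESC arrays spanned both ranges. The skin cultures stood apart from each other, at 8.65 for M106p1, 8.16 for M032 and 7.82 for M088.

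The line C3806 teratoma cultures were 1.01 ± 0.17 above those of line C3106 for the brightest ERAP1 probe set (limma adjusted p = 0.159) and 1.06 ± 0.21 for the second (adjusted p = 0.225). Neither was called, nor was any other of the 17. Of all probe sets 0.0321% were called in this comparison, 0.0240% higher and 0.00801% lower, with 4.76% at an unadjusted p under 0.05. In 3 of 17 probe sets, both of ERAP1 and the third of TAPBP, all line C3106 teratoma cultures lay below all of line C3806, which held for 2.53% of all probe sets. Both ERAP1 probe sets were called when arrays were fitted with the source as a random block (1.01 and 1.06, limma adjusted p = 0.00421 and 0.000459). That fit called more over the whole array too, 39 higher and 35 lower, against 6 and 2 in the fit on source means.

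Between the ESC lines, ERAP1 was higher in C3806 by 0.74 (limma adjusted p = 0.0413) and 0.71 (adjusted p = 0.0136). Without the array labelled C3106c, the differences were 1.03 (adjusted p = 0.00247) and 1.07 (adjusted p = 3.54e-07). The test compares arrays of 2 sources and says nothing of other lines. Of the 17 probe sets 3 passed between the ESC lines, where 9.84% of all did, and the third was the brightest of PSMB10 (0.45, adjusted p = 0.0302, and 0.0602 without C3106c). TAP1 differed by 0.35 (adjusted p = 0.0517) and by 0.42 without C3106c (adjusted p = 0.0204). Without C3806a none of the 17 passed. An interaction term, which compares the lines in their difference of ESC from teratoma culture, called 0 of 17 in limma (0.196% of all probe sets were called, 0.148% lower and 0.0481% higher, and 7.42% had an unadjusted p under 0.05, none of them among the 17).

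**Figure D4:**
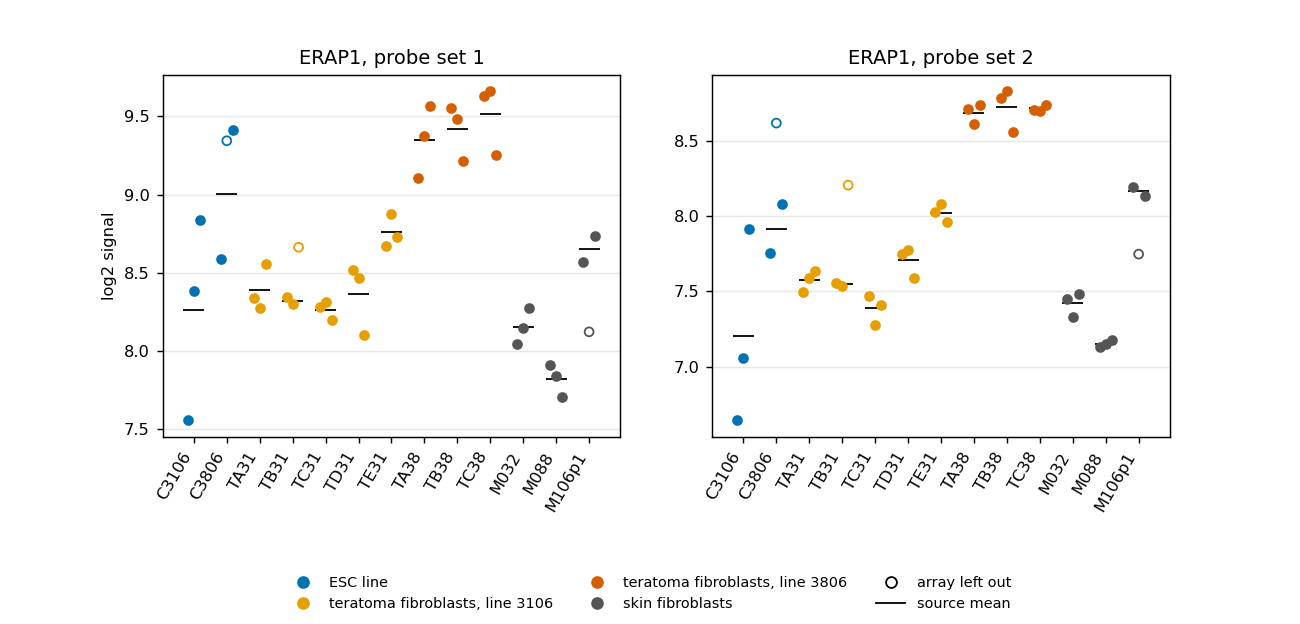
Log2 signal (vertical axis) of both ERAP1 probe sets on each array by source (horizontal axis); lines are source means and open circles are arrays left out. The 9 arrays of TA38, TB38 and TC38 lie at 9.10 to 9.66 in the left panel, above the 14 arrays of the line C3106 teratoma cultures at 8.10 to 8.88.

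Against skin, teratoma fibroblasts were 0.71 ± 0.16 higher for the brightest ERAP1 probe set (limma adjusted p = 0.0454, under the fold limit) and 0.60 ± 0.19 for the second (adjusted p = 0.112). Against ESCs the same probe sets had differences of -0.29 and -0.62 (ESC minus teratoma), neither past the p limit. Without C3106 or without C3806 these became 0.078 or -0.66 for the brightest and -0.26 or -0.97 for the second. ERAP2 stood at 4.08 to 5.63 over all arrays and both probe sets, in the lower part of the array's range of 2.11 to 14.18. None of its comparisons was called.

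NLRC5, the transactivator, had higher source means in skin than in the other cell types. It read 6.07, 6.06 and 5.80 on C3106b, C3106c and C3106d and 6.38 and 6.09 on C3806a and C3806b. Teratoma arrays ran from 6.07 through a median of 6.38 to 6.98. Skin arrays read 7.71 to 7.82 for M032, 6.86 to 7.36 for M088, and 8.10 and 8.16 for M106p1. The source means of all 8 teratoma cultures lay below those of all 3 skin cultures, which held for 1 of the 17 probe sets and 3.04% of all. The lowest M088 array, at 6.86, lay below the highest arrays of TE31 and TB38.

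NLRC5 was the only 1 of 17 called between teratoma and skin fibroblasts, at -1.16 ± 0.22 (limma adjusted p = 0.0271), where 0.481% of all probe sets were called lower, 0.581% higher and 1.06% either way, and 21.8% had an unadjusted p under 0.05. ESCs were -1.57 ± 0.30 from skin (adjusted p = 0.00185, called lower) and -0.41 ± 0.26 from teratoma fibroblasts (adjusted p = 0.251, not called). At 5.80 to 6.38 the ESC arrays lay near or below the array medians of 6.25 to 6.48, where a difference may be understated. With all 39 arrays the difference between teratoma and skin was -0.86 and not called (adjusted p = 0.0939). The call was also lost without M032 (-1.11), M106p1 (-0.93), TA31 (-1.15), TB31 (-1.14), TB38 (-1.17) or TC38 (-1.10), with adjusted p from 0.0523 to 0.0974. CD68, a macrophage marker, was the single called gene of 9 measured leukocyte and macrophage markers in this comparison, 1.28 higher in teratoma fibroblasts. Over the 9 the median was -0.018, and 6 lay below 0, the other way from CD68. PTPRC, the pan-leukocyte marker, stood at source means of 5.96 to 6.31 in teratoma cultures and 5.94 to 6.10 in skin. The part of these markers in the result was not tested.

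NLRC5 differed among cultures as well. M106p1 was highest at 8.13, then M032 at 7.76 and M088 at 7.12, with no overlap of arrays between them. TE31 stood at 6.94 while the other line C3106 teratoma cultures lay between 6.15 and 6.27, and the line C3806 cultures lay between 6.46 and 6.85. F tests in limma passed among skin cultures (adjusted p = 5.93e-08), line C3106 teratoma cultures (adjusted p = 6.38e-07) and line C3806 teratoma cultures (adjusted p = 0.0117). Over the 17 probe sets, F tests passed for 8 among skin cultures, 9 among line C3106 and 7 among line C3806 teratoma cultures, where 31.8%, 35.8% and 24.7% of all probe sets passed. These shares describe differences between cultures beyond the spread of their arrays.

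The order of sources was not shared by the members. M088 was highest for PSMB8 and TAP1 and lowest for ERAP1 and, within skin, for NLRC5. As a description over the 13 source means, which share the contrast of ESCs with fibroblasts, PSMB8 had a Pearson r of 0.87 with TAP1 and 0.87 with TAPBP, and of 0.53 with NLRC5. Among 14131 other genes, those most like TAPBP were MYDGF, CD47, ADAMTS10, NFKB1 and AOPEP (r of 0.97 to 0.98). Those most like PSMB8 were FER, SLC35D1, LOC700403, LOC699964 and PLEKHH2 (0.91 to 0.92), and those most like NLRC5 were IL15, DPYS, PTGIR, NOC2L and GARIN1B (0.93 to 0.97). In the RefSeq gene table of T2T-MMU8v2.0, PSMB9, TAP1, PSMB8 and TAP2 are neighbours on chromosome 4.

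The class I heavy chains, which hold the peptide, were read by 15 probe sets of 6 genes. These genes share much of their sequence, so signal may be split between them and each value is uncertain. Another 8 probe sets are annotated to several class I genes and are not named. In ESCs 3 of 15 were called lower and 1 higher against teratoma fibroblasts, where 8.51% and 6.12% of all probe sets were. Against skin 4 were called lower and 0 higher, where 9.77% and 9.52% of all were. The lower calls include a MAMU-E pair whose probe set names differ only in their suffix, so the pair may not be independent.

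MAMU-F, a non-classical heavy chain, read 7.43 in C3106 and 7.59 in C3806, 8.48 to 8.96 in teratoma cultures and 8.88 to 9.34 in skin cultures for its brightest probe set. ESCs were below all 11 fibroblast cultures, at -1.23 ± 0.14 (limma adjusted p = 6.62e-05) and -1.61 ± 0.16 (adjusted p = 2.88e-05). The other MAMU-F probe sets read -0.14 and 0.25 against teratoma fibroblasts and -0.56 and 0.21 against skin, none called. Their source means ran from 5.61 to 6.43 and from 5.14 to 5.68, near or below the array medians of 6.25 to 6.48. The first of these 2 passed the p limit against skin (limma adjusted p = 0.00716), in the direction of the brightest. The MAMU-F probe sets differ in size, and the calls rest on the brightest. A MAMU-E pair of probe sets was lower in ESCs by -1.76 and -1.51 against teratoma fibroblasts and by -1.95 and -1.73 against skin. The array C3806a read 5.59 for the first of the pair, and without it the values of that probe set were -1.316 and -1.501, still called. The brightest MAMU-E probe set read 0.68 and 0.29 and was not called, so the MAMU-E probe sets disagree. A MAMU-A probe set was called lower against skin (-1.59 ± 0.47, adjusted p = 0.020).

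MAMU-AG, a non-classical gene known from the placenta, had the single heavy chain probe set called higher in ESCs. That probe set read 7.11 in C3106 and 7.59 in C3806 against 6.01 to 6.45 in teratoma cultures. ESCs were 1.09 ± 0.20 higher (limma adjusted p = 0.00149), and without C3806a 0.99, under the fold limit. The brighter MAMU-AG probe set read -0.24 (adjusted p = 0.562), so the MAMU-AG probe sets disagree. Against skin the value was 0.81 ± 0.23 (adjusted p = 0.0155, under the fold limit), and M106p1 stood near the ESCs at 7.05. A MAMU-A probe set read 9.78 to 10.73 in line C3806 teratoma cultures and 6.02 to 7.60 in those of line C3106 (3.79 ± 0.73, adjusted p = 0.225). On it C3106 had an SD of 1.44 over 3 arrays, from 6.55 to 9.05. These include the array labelled C3106c, which went with line C3806 above, and its part in this spread was not tested.

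**Figure D5:**
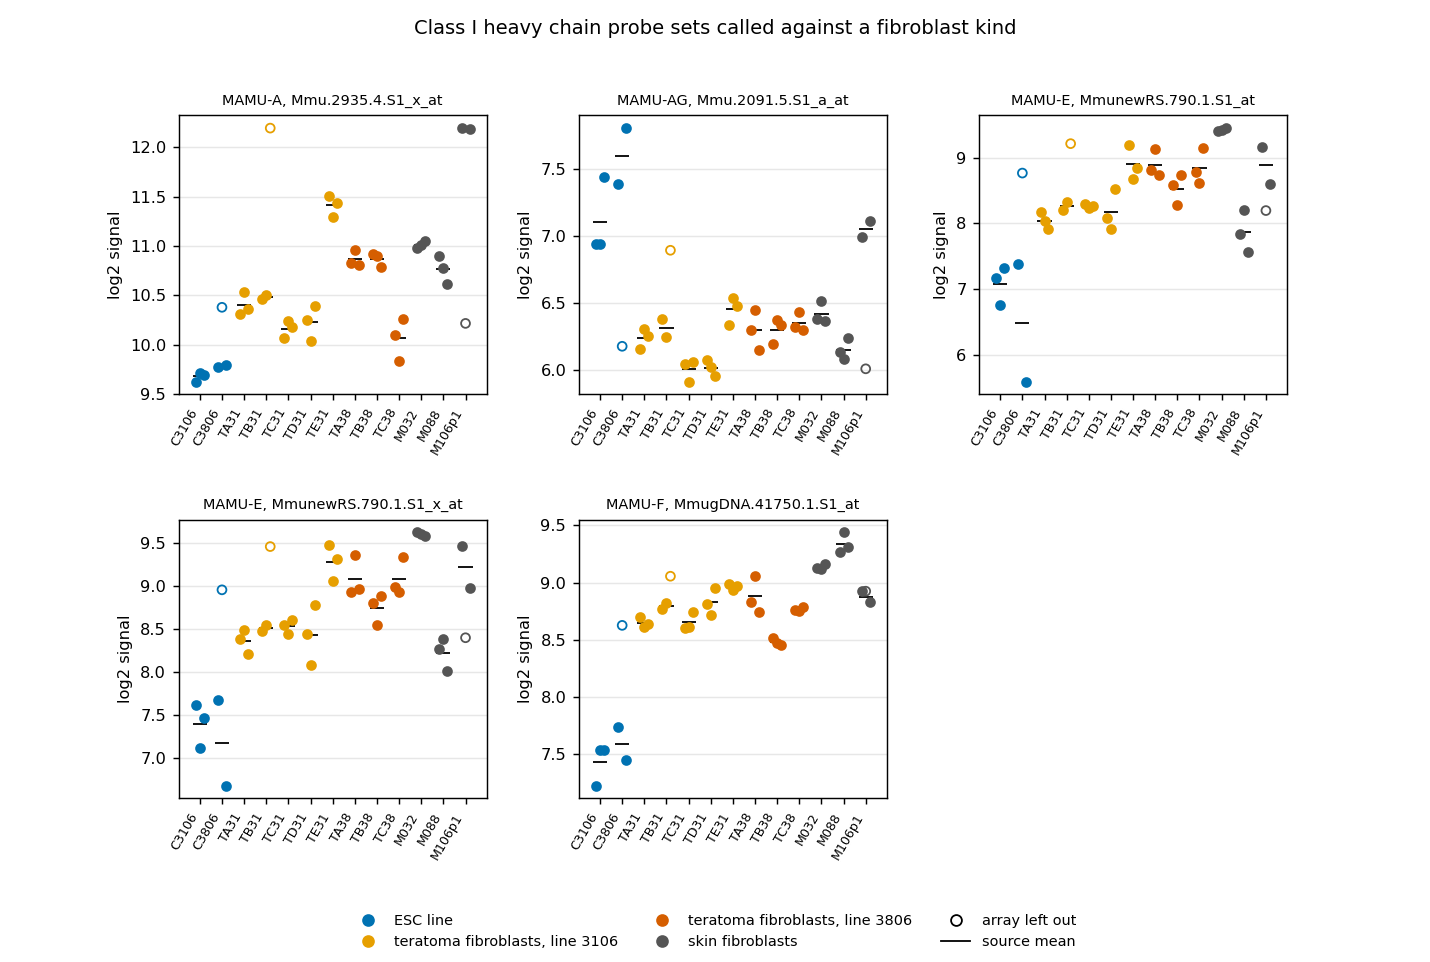
Log2 signal (vertical axis) on each array by source (horizontal axis) for the 5 class I heavy chain probe sets called between ESCs and a fibroblast kind; lines are source means and open circles are arrays left out. The brightest MAMU-F and both plotted MAMU-E probe sets are lower in ESCs than in all fibroblast cultures, and MAMU-AG is higher in ESCs than in all teratoma cultures.

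Other genes of the pathway moved in part. Against teratoma and skin fibroblasts, 8.51% and 9.77% of all probe sets were called lower and 6.12% and 9.52% higher. Of 6 measured loading factors and chaperones 1 was called lower against each fibroblast kind, SEC61A1, a subunit of the translocon of the endoplasmic reticulum (-1.22 and -1.20). Of 5 cytosolic peptidases NLN was called lower (-1.09 and -1.39) and THOP1, which degrades peptides in the cytosol, higher against skin (1.01). Of 5 class I-like molecules 3 were called lower in ESCs against both kinds: HFE, which takes part in iron control (-2.09 and -1.95), FCGRT, the neonatal Fc receptor (-1.53 and -1.61), and PROCR, the protein C receptor (-1.77 and -3.66). PROCR was also lower in teratoma than in skin fibroblasts (-1.89).

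Among 12 measured regulators of class I transcription, NFKB1, an NF-kappaB subunit, was called lower in ESCs (-3.19 and -3.49), and NFYB (1.15) and RFXAP (1.00), parts of the complexes on MHC promoters, were called higher against skin. Of 5 interferon receptor and signalling genes JAK2, a kinase of the interferon-gamma receptor, was called lower (-3.49 and -2.81). The 16 interferon response genes split, with 5 called higher and 4 lower against each fibroblast kind. Of all probe sets 6.12% and 9.52% were called higher and 8.51% and 9.77% lower, against teratoma and skin fibroblasts. The GTPase GBP1 was lower (-4.31 and -5.05) and its relative GBP2 higher (1.76 and 2.29), IFI35 was lower (-2.31 and -2.81), and the membrane protein IFITM1 was higher (3.13 and 3.46). The medians of these 16 were -0.052 and -0.17, against 0.024 and 0.028 over all genes. UBE2L6, an enzyme of ISG15 conjugation, was higher too (2.40 and 2.15). Between teratoma and skin fibroblasts none of these 16 was called, where 1.06% of all probe sets were.

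Markers of other cell types were set beside the ESC comparisons. Of 9 leukocyte and macrophage markers and 7 endothelial markers, 0 were called in limma in either ESC comparison. Of all probe sets 14.6% were called either way against teratoma fibroblasts and 19.3% against skin. The mean level over the leukocyte markers ran from 5.79 to 5.92 in ESC sources, 5.71 to 5.96 in teratoma cultures and 5.69 to 5.75 in skin cultures. Of 6 embryonic skeletal muscle markers, CHRNA1 was called lower in ESCs against teratoma fibroblasts (-2.77) and ACTC1 higher against skin (3.93), and the mean level over the 6 ran from 5.53 to 10.21 in teratoma cultures. Their part in the results was not tested.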

How the data were processed

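Cultured rhesus macaque cells were measured on 39 single-colour arrays. The authors deposited log2 signals, 1 per probe set and array, made with GCOS and RMA per the submitters' processing notes; their versions and settings are not stated in the sources used here. RMA makes array distributions alike, so a shift shared by most genes would be hidden. Values ran from 2.11 to 14.18 and array medians from 6.25 to 6.48. The number of arrays limits the precision.

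Probe sets were named from the platform annotation: 24969 of 52865 carry 1 gene, 361 several and 27535 none. Those with 1 gene, without controls, came to 24956 (14132 genes). Arrays were averaged to 13 source means and fitted with limma 3.58.1 in R 4.3.3 as 5 classes (each ESC line, teratoma fibroblasts of each line, skin), leaving 8 residual degrees of freedom. Lines were weighted equally within a cell type. Differences among cultures were tested by limma F tests on 36 arrays (23 residual degrees of freedom). The fit was tested on simulated data. Tests were two-sided.

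All probe sets of the members were named, up to 4 called genes per other list and comparison, and the 5 most alike patterns for TAPBP, PSMB8 and NLRC5. Other lists are represented by the brightest probe set of each gene, the heavy chains by all of theirs. Heavy chain probe sets other than the brightest, and PTPRC, were named after their values were seen. Members and lists were chosen with earlier results of these data known. Alternatives changed the arrays, probe sets, normalization, variance model and blocks, and left out each source and array. Leaving out C3106c was chosen after seeing the data. Arrays of the same letter in different sources showed little likeness in their deviations from source means (median correlation 0.057 for same letters, -0.032 for others). Pairs ran from -0.505 to 0.61 for same letters and from -0.582 to 0.636 for others. Whether arrays of a letter share a weak effect was not tested. Sequences were not used here.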

Additional observations from a re-analysis of the deposited data

Results flagged for a closer look

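Among the teratoma cultures of line C3106, TE31 stood apart from the other 4 on 3 probe sets, by a gap to its nearest neighbour that took up an unusually large share of the whole range. For NLRC5 its source mean was 6.94 against 6.27 in the next culture, a gap of 0.841 of the range. For the second TAPBP probe set it was 7.48 against 7.18, a gap of 0.773. For the brightest ERAP1 probe set it was 8.76 against 8.39, a gap of 0.744, although the limma F test among these cultures did not pass for it (adjusted p = 0.289). The F test passed for NLRC5 (adjusted p = 6.38e-07) and for the second TAPBP probe set (adjusted p = 0.0030). Among all 8 teratoma cultures, TC38 stood apart for the brightest PSMB10 probe set at 9.24 against 8.71 in the next, a gap of 0.527. Such gaps were looked for in 34 groups of source means, and chance alone marks about 1 in 20 groups. The cause was not tested.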

How the results depend on the processing

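Of 2973 refits of the log2 differences of the 17 probe sets in the comparisons of ESC with teratoma, ESC with skin and teratoma with skin, 2856 kept sign and call, 12 lost a call and 105 changed sign. The lost calls were those of NLRC5, PSMB8 and TAP1 given above. The sign changes fell on 19 differences, all under 0.30 in size. The cause was not tested except where fewer genes or samples entered. With 2 ESC sources, leaving out either leaves a lone source that is assumed to vary like the fibroblast cultures. In the comparison with teratoma fibroblasts that source is set against the teratoma cultures of both lines.

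With the brightest probe set per gene, which tests fewer probe sets, calls over the array were 1445 higher and 1379 lower for ESC minus skin, 891 and 1153 for ESC minus teratoma, 93 and 77 for teratoma minus skin, 3 and 5 for the interaction, and 1 lower between the lines' teratomas. With all 39 arrays they were 20 and 91 for the interaction and 43 and 29 for teratoma minus skin, where 0 of the 17 were then lower. F tests among cultures then passed 5 of the 17 for skin, 3 for line C3106 and 2 for line C3806. Without C3806a the interaction called 29 higher, and 0 of the 17 differed between the ESC lines. Without C3106c, an alternative chosen after seeing the data, it called 20 higher. With a mean of at least 6 it called 3 higher and 16 lower.

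Fitting arrays with the source as a random block called 1 higher and 2 lower for the interaction, 528 and 398 for teratoma minus skin, and 39 and 35 between the lines' teratomas, 2 of the 17 among the higher. Adding the array letter as a replicate block gave 1 and 3, 471 and 416, and 36 and 35, again with 2 of the 17. In both fits these were the ERAP1 probe sets, which gained a call. Whether arrays of a letter share more than a name was not tested (see the correlations above).

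The following differences changed sign. ERAP1 (second probe set), ESC minus skin, read 0.14 with all 39 arrays, 0.023 after quantile normalization, 0.025 after median centring, 0.0081 with the random block and 0.19 with the replicate block. ERAP2 (second), ESC minus skin, read -0.034 with 39 arrays, -0.026 without C3806a, -0.0035 without C3106c, -0.021 after quantile normalization and -0.027 with the replicate block. ERAP2 (brightest) read 0.012, 0.017 and 0.018 for ESC minus skin (39 arrays, median centring, replicate block), and after median centring 0.027 for ESC minus teratoma and -0.010 for teratoma minus skin. PSMB10 (second), ESC minus teratoma, read 0.0011 after median centring. TAP2 (the third), teratoma minus skin, read 0.028 with 39 arrays, 0.0064 with the random block and 0.035 with the replicate block. TAP2 (the second) read -0.0030 for ESC minus teratoma without C3106c, and -0.017 and -0.031 for teratoma minus skin after quantile normalization and median centring. For teratoma minus skin, TAPBP (second) read 0.026 with 39 arrays, and TAPBP (the third) -0.040 and -0.041 after quantile normalization and median centring.

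Leaving out 1 source or array in turn gave 7 to 104 higher and 19 to 488 lower calls for the interaction, 44 to 328 and 63 to 248 for teratoma minus skin, and 1 to 8 and 0 to 5 between the lines' teratomas. Of the 17, calls ran from 1 to 2 for ESC below teratoma, 0 to 1 for teratoma below skin and 0 to 2 for line C3806 above line C3106 (2 without M106p1 alone), and 0 to 5 differed between the ESC lines. Ranges that crossed 0 for ESC minus skin were -0.38 to 0.34 for ERAP1 (second), -0.070 to 0.086 and -0.093 to 0.071 for ERAP2 (second, brightest), -0.23 to 0.038 for PSMB10 (second), and -0.0045 to 0.27 and -0.024 to 0.14 for TAP2 (the third, the second). For ESC minus teratoma they were -0.66 to 0.078 for ERAP1 (brightest), and -0.0030 to 0.27 and -0.051 to 0.11 for TAP2 (the third, the second). For teratoma minus skin they were -0.017 to 0.15 for ERAP2 (brightest), -0.13 to 0.14 and -0.15 to 0.18 for PSMB10 (second, brightest), -0.13 to 0.13, -0.037 to 0.063 and -0.015 to 0.058 for TAP2 (brightest, the third, the second), and -0.074 to 0.033 and -0.013 to 0.045 for TAPBP (the second, the third). None of these differences was called in any refit.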
